A study of Mus musculus with 24 samples.

Results

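The angiogenic ligands are the secreted growth factors that start, guide or settle the growth of blood vessels, and 9 of them were followed here in mouse skeletal muscle, *Vegfa*, *Vegfb*, *Vegfc*, *Figf* (the older symbol of *Vegfd*), *Pgf*, *Angpt1*, *Angpt2*, *Fgf1* and *Fgf2*. Members were chosen by name, as every non-control probe that the scanner output assigns to one of these symbols, which gave 12 probes in 31 spots for 9 of the 22328 genes named on the array. The study asked how the *M. gastrocnemius*, a calf muscle of mainly fast fibers, adapts to a short restriction of environmental oxygen. The mice, males of the C57BL/6JOlaHsd strain, were 10 weeks old on arrival, ate a low-fat diet (10% of energy from fat) for 3 weeks and a high-fat diet (40% of energy from fat) for 6 weeks, and were fasted before the exposure. The Hypox group of 12 mice was then kept at 12% oxygen for 6 h, and the Norm group of 12 mice at 20.9% oxygen. Both groups shared the strain, the sex, the diets and the fast, so that every value below compares fasted mice on a high-fat diet, and each array held the Cy5-labelled whole-muscle RNA of 1 mouse beside a Cy3-labelled pool made from all of the samples.

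Vascular endothelial growth factor A, the product of *Vegfa*, binds the receptors encoded by *Flt1* and *Kdr* on endothelial cells and is the main signal for new capillaries in muscle, where fibers themselves make it. Low oxygen stabilises the hypoxia-inducible factors, which bind short DNA elements near *Vegfa* and other genes, and the coactivator encoded by *Ppargc1a* raises *Vegfa* by a route that does not need them. *Vegfb* and *Pgf* encode relatives that bind *Flt1* alone, *Vegfc* and *Figf* encode the lymphatic growth factors that bind *Flt4*, the angiopoietins of *Angpt1* and *Angpt2* act on the receptor encoded by *Tek*, and *Fgf1* and *Fgf2* encode fibroblast growth factors that lack a classical secretion signal.

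*Vegfa* had 2 probes on the array, 1 in the coding sequence and 1 in the 3′ untranslated region (3′ UTR), the latter at chr17:46154387-46154446 on the minus strand of mm9, the build of the scanner annotation. Of the ligand probes, 1 for *Fgf2* is shown because it marks the lower end of what these arrays could measure, a designed 60-base probe whose signal stayed near the background in every mouse. The probe A_51_P399845 spans an intron, with its ends at chr3:37247934-37295153 of mm9 on the plus strand, and none of its letters is in capitals, since no part is singled out.
Fgf2 junction probe: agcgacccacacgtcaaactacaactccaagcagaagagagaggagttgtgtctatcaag
It had no stop codon in any of its 3 reading frames, whereas the 3′ UTR probe of *Vegfa* had one in every frame.

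The bases in front of the start sites were searched for the core of the hypoxia response element, written here as ACGTG and GCGTG and read on both strands. RefSeq sequence (GRCm38.p6) was at hand for 6 of the 9 genes, with 8 start sites, and the 250 bases upstream of 4 start sites held a match, in *Vegfa*, *Vegfb*, *Pgf* and *Fgf2*. Of all 32851 start sites, 38.6% held one in a window of that length. The windows of the first listed *Vegfa* start (chr17:46032378-46032627, minus strand) and of *Vegfb* (chr19:6987652-6987901, minus strand) are given with the matches in capitals. They show a window with 0 matches and a window with 2.
Vegfa upstream: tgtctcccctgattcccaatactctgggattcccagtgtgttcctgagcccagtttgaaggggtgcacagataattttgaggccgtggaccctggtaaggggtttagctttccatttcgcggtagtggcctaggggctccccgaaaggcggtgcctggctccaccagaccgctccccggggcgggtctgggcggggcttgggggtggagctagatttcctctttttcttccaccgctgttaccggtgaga
Vegfb upstream: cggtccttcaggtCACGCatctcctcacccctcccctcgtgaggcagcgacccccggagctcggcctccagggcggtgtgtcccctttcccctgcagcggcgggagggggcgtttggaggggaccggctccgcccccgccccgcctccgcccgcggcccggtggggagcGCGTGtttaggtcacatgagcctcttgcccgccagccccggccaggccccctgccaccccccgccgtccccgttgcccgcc
The second listed *Vegfa* start also held 2 matches, and *Vegfc* and *Vegfd* held 0. A match is a stretch of letters and not a shown binding site, and elements farther upstream lie outside these windows.

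Each of the 6 slides carried 2 arrays of either group, and the mean Cy5 signal of a slide ranged from 72.9 on slide 1 to 845 on slide 6. All 10 markers of muscle fibers passed the signal filter described below, and 0 of them were called between the groups at an unadjusted P-value under 0.05, but with the slide as a block *Myh1* (−0.26, limma, P-value = 0.0101) and *Myh4* (−0.59, limma, P-value = 0.00346) were lower. Of the markers of other cells, 1 of 7 of pericytes and smooth muscle was called as higher at that threshold, 2 of 6 of adipocytes, 2 of 6 of fibroblasts and 2 of 5 of Schwann cells as lower, and 0 of 3 of macrophages and 0 of 2 of red blood cells in either direction. Over all 9139 genes, 12.1% were called, 7.07% higher and 4.99% lower. When slide entered the fit as a block, 3 of 6 adipocyte and 3 of 5 Schwann cell markers were called as lower. The fibroblast marker *Dcn* passed adjustment (limma, adjusted P-value = 0.0221). That fit called 2284 of all 14312 probes past the filter, 52.4% of them higher, and 214 after adjustment. Without the block 2011 and 143 were called. Of 9 lung markers 2 passed the filter. These were *Lamp3*, which was well above background on all 24 arrays, and the surfactant gene *Sftpc*, which was well above background on 4 of 12 Hypox arrays and on 0 of 12 Norm arrays. A probe of *Sftpb* that did not pass the filter was well above background on 3 Hypox arrays. Without the 4 arrays with *Sftpc*, 1 probe of all those tested passed adjustment, and the same number passed without slide 4 or without slide 5.

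None of the ligand probes past the signal filter was called between Hypox and Norm in the moderated test of limma at an unadjusted P-value under 0.05, and 1, *Figf*, passed that threshold in the methods' t-test (P-value = 0.0254 and 0.287 after adjustment). Of the 6 ligand probes with a Cy5 signal over 2 times the local background, for *Vegfa* (2 probes), *Vegfb*, *Figf*, *Angpt1* and *Fgf1*, 0 were called by limma, against 14.1% of all 14312 probes past the filter. After Benjamini-Hochberg adjustment 0 were called as well, against 0.999% of all probes. The estimates were between −0.19 and 0.15 on the log2 scale, with 4 probes higher in Hypox and 2 lower, the 2 of *Vegfa*, whose sign turned when the arrays were only centred on their medians. Their median size was 0.10 without regard to sign, and that of all probes past the filter was 0.094. The groups overlapped for all 12 ligand probes, but the share over all probes was not counted, and the groups of *Vash1*, called below, overlapped as well. In whole muscle, fewer cells of a type and less RNA per cell cannot be told apart.

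**Figure D1:**
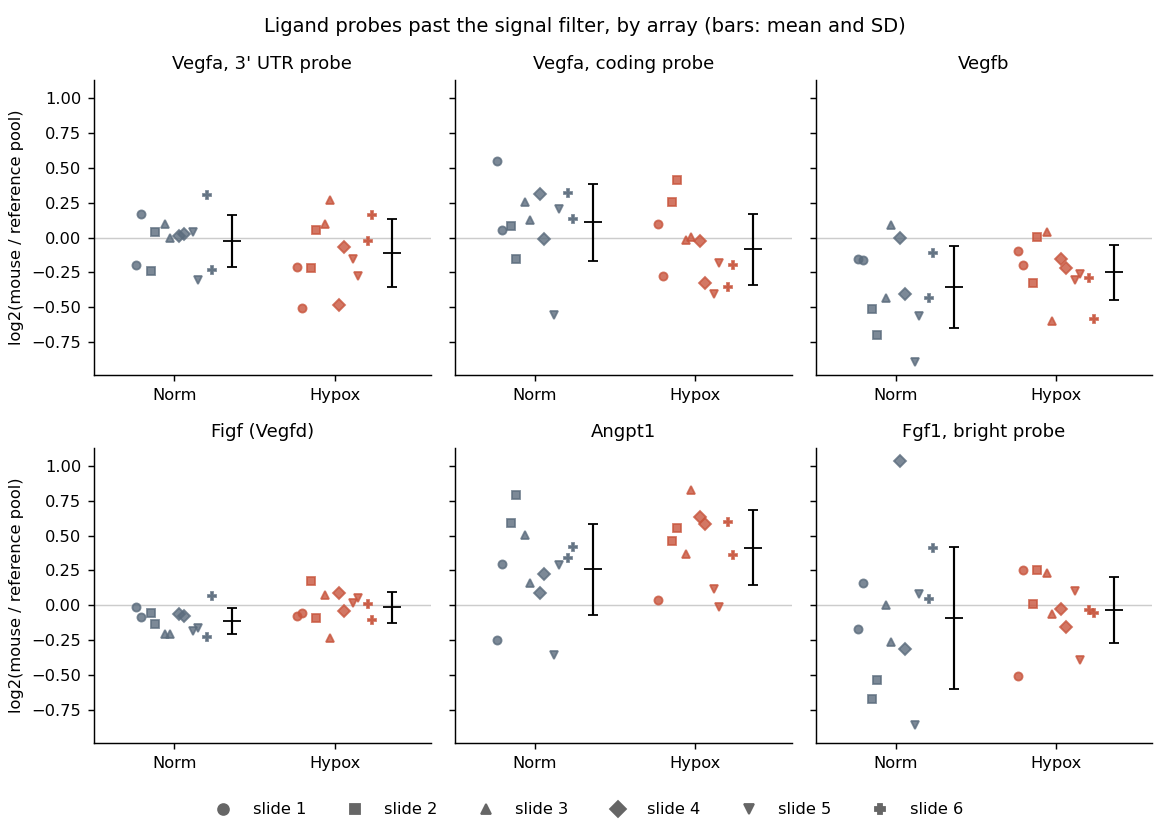
Log2 ratio of the mouse over the reference pool (y axis) in the 12 Norm and 12 Hypox arrays for the 6 ligand probes past the signal filter, 1 panel each. Each point is 1 array (*Angpt1* has 11 Hypox arrays) with its symbol giving the slide, and bars give the mean and SD. The groups overlap in all 6 panels, and the spread is widest for Norm in *Fgf1*, from −0.85 to 1.03.

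*Vegfa*, the central ligand, was slightly lower in Hypox by both of its probes, within the spread of the arrays. For the 3′ UTR probe, the log2 ratio over the pool was −0.31 in the lowest, 0.017 in the median and 0.30 in the highest Norm array, and −0.50, −0.11 and 0.27 in Hypox. The Hypox values reached lower and covered most of the Norm range, with 4 of 12 Hypox arrays above the Norm median. The mean was −0.024 ± 0.18 for Norm and −0.11 ± 0.24 for Hypox (SD over 12 arrays per group), a difference of −0.087 ± 0.089 (SE) with a 95% confidence interval from −0.27 to 0.095 (limma, P-value = 0.336, adjusted P-value = 0.696). On the linear scale this is a change of −5.86%, and the interval runs from −17.1% to 6.83%.

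The coding probe of *Vegfa* gave the lowest estimate of the ligands. Its log2 ratio was −0.55, 0.13 and 0.55 in the lowest, median and highest Norm array, and −0.41, −0.10 and 0.41 in Hypox. Only 2 of 12 Hypox arrays were above the Norm median, and both lay on slide 2. The difference was −0.19 ± 0.11 (SE), with an interval from −0.41 to 0.022 (limma, P-value = 0.0767, adjusted P-value = 0.413), or −12.6% with an interval from −24.7% to 1.55%.

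Within slides, the coding probe was lower in Hypox on 5 of 6 slides, by −0.12 to −0.50, and higher by 0.37 on slide 2. Without slide 2 the difference was −0.31 (limma, P-value = 0.00776, adjusted P-value = 0.240), which passed the unadjusted threshold but not the adjusted one. It also passed the unadjusted threshold without Norm replicate 5 (−0.25, P-value = 0.0120), without Hypox replicate 5 (−0.24, P-value = 0.0259) and without Hypox replicate 8 (−0.22, P-value = 0.0436), of which both Hypox arrays lay on slide 2. The 3′ UTR probe was higher on 3 slides and lower on 3, from −0.34 on slide 1 to 0.14 on slide 3, and was at −0.036 without slide 1. With median centring in place of loess the differences were 0.21 for the 3′ UTR probe and 0.074 for the coding probe, but this scaling moved the median of all probes past the filter from 0.023 to 0.24, and both *Vegfa* probes stayed under that median. In the log2 values that the authors deposited the 3′ UTR probe was at 0.018 and the coding probe at −0.16.

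**Figure D2:**
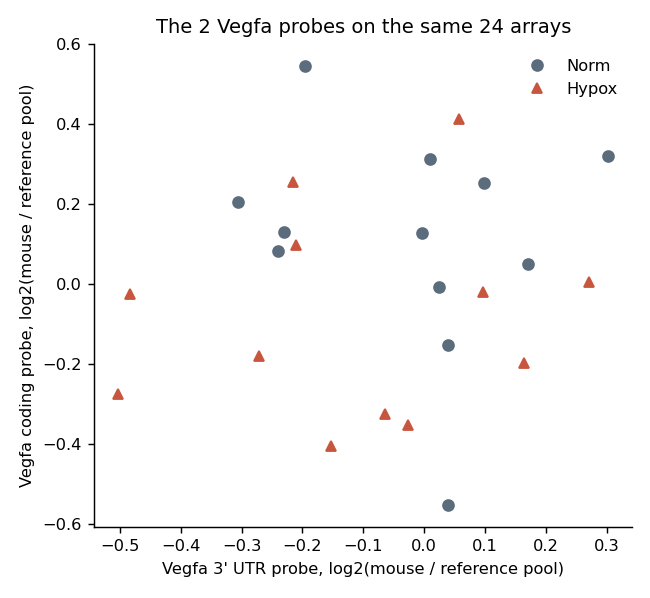
Log2 ratio of the mouse over the reference pool for the 3′ UTR probe (x axis) and the coding probe (y axis) of *Vegfa*, 1 point for each of the 24 arrays, circles for Norm and triangles for Hypox. The points form no line, with a Pearson correlation of 0.083 across the arrays.

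The pair of *Vegfa* probes did not follow each other from mouse to mouse. Across the 24 arrays their correlation was 0.083, and 0.019 after the mean of each slide was removed, as a description of arrays that share slides and a reference pool. The 3′ UTR probe was printed in 2 spots, whose log2 ratios on an array had a median SD of 0.17. The mean of the 2 spots, a different measure, had an SD of 0.18 over the Norm mice and 0.24 over the Hypox mice. Its mean Cy5 signal was 10.6 times the local background and that of the coding probe was 4.92 times. A difference between these probes in the response to oxygen was not tested.

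*Vegfb*, whose product is abundant in oxidative tissue and is linked to lipid handling of the endothelium, was at −0.89, −0.42 and 0.089 in the lowest, median and highest Norm array and at −0.59, −0.24 and 0.042 in Hypox. The Hypox range lay inside the Norm range, although 10 of 12 Hypox arrays were above the Norm median. The difference was 0.11 ± 0.10 (SE), with an interval from −0.097 to 0.31 (limma, P-value = 0.288, adjusted P-value = 0.663), or 7.84% with an interval from −6.51% to 24.4%. It was higher in Hypox on 4 of 6 slides, and the slides ranged from −0.16 to 0.45. *Vegfb* was at 0.060 without Norm replicate 5 and at 0.042 without slide 2 or without slide 5.

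Of the ligand probes past the filter, *Figf* had the narrowest spread, with 10 spots averaged on each array. Its log2 ratio was −0.22, −0.11 and 0.066 in the lowest, median and highest Norm array and −0.23, −0.015 and 0.18 in Hypox. The ranges overlapped in most of their length, with 11 of 12 Hypox arrays above the Norm median. The difference was 0.097 ± 0.055 (SE), with an interval from −0.017 to 0.21 (limma, P-value = 0.0909, adjusted P-value = 0.441), or 6.95% with an interval from −1.14% to 15.7%. Hypox was higher on 5 of 6 slides, with 0.21 on slide 5 as the highest and −0.018 on slide 1 as the lowest value.

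The call for *Figf* depended on the test and on single arrays. It passed the unadjusted threshold without Hypox replicate 2 (0.12, limma, P-value = 0.0363). In the fit over all 55681 probes, where 8.06% of the probes were called at an unadjusted P-value under 0.05 and 0.0808% after adjustment, its unadjusted P-value was 0.0391 and its adjusted P-value 0.590, and it was the 1 ligand probe of 12 called there. Its signal was 2.76 times the background, near the filter, and it was well above background on 8 Norm and 10 Hypox arrays. Lung makes much *Figf*, and without the 4 arrays on which *Sftpc* was detected the difference of *Figf* was 0.070 (limma, P-value = 0.271).

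*Angpt1*, whose product from cells around the vessel keeps endothelium quiescent, was at −0.35, 0.29 and 0.79 in the lowest, median and highest Norm array and at −0.013, 0.46 and 0.83 in the 11 Hypox arrays with a value. The lowest Norm arrays lay under all Hypox arrays and the upper ends met. The difference was 0.15 ± 0.12 (SE), with an interval from −0.092 to 0.40 (limma, P-value = 0.209, adjusted P-value = 0.600), or 11.3% with an interval from −6.15% to 31.9%. It was higher on 5 of 6 slides, most on slide 4 with 0.45, and lower on slide 2 with −0.18. *Angpt1* was at 0.098 without Norm replicate 5 and at 0.090 without slide 4.

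*Fgf1*, a growth factor of muscle and fat, was the most variable ligand across mice. Its brighter probe was at −0.85, −0.082 and 1.03 in the lowest, median and highest Norm array and at −0.51, −0.027 and 0.25 in Hypox. All Hypox arrays lay inside the range of Norm, whose SD was 0.51 against 0.24 in Hypox, a difference in spread that was not tested. The difference of the means was 0.057 ± 0.15 (SE), with an interval from −0.25 to 0.37 (limma, P-value = 0.707, adjusted P-value = 0.891), and the slides were split, 3 higher and 3 lower, from −0.45 to 0.73. Its sign turned in the Cy5 channel alone (−0.044), with array weights (−0.0077), without Norm replicate 5 (−0.012) and without slide 2 (−0.077).

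**Figure D3:**
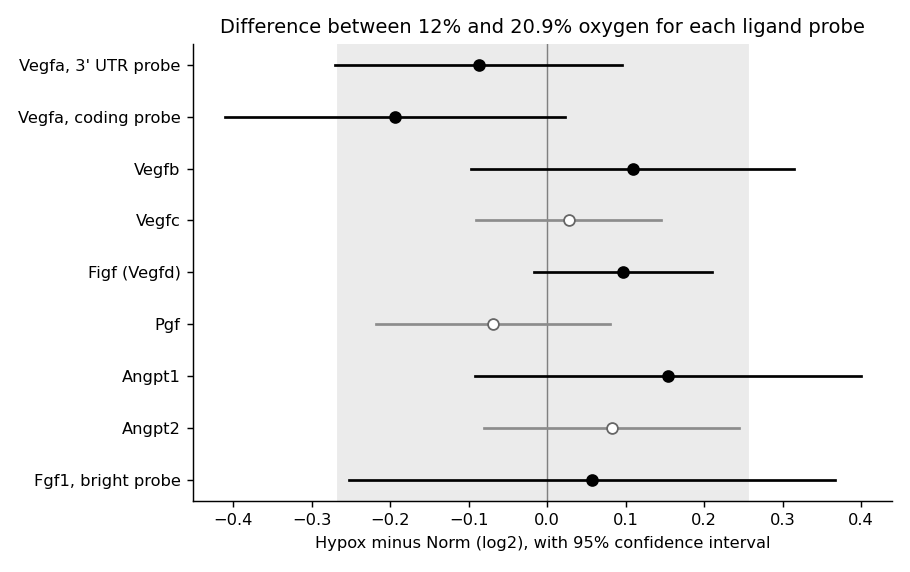
Difference between Hypox and Norm on the log2 scale (x axis) with its 95% confidence interval for the 9 ligand probes with a measured difference (y axis). Filled points passed the signal filter and open points did not and come from the fit over all probes, and the grey band is the range from the 5th to the 95th percentile of all probes past the filter, −0.27 to 0.26. All 9 intervals include 0 and all 9 estimates lie inside the band.

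The other ligands were too dim for the filter. *Vegfc*, the main growth factor of lymphatic vessels, reached 1.97 times the background and was well above it on 7 Norm and 6 Hypox arrays, and its difference in the fit over all probes was 0.027 with an interval from −0.090 to 0.15 (limma, P-value = 0.637). *Angpt2*, which loosens vessels by opposing *Angpt1* at the receptor and is made by endothelial cells, reached 1.68 times and was well above background on 3 Norm and 4 Hypox arrays, with a difference of 0.082 and an interval from −0.080 to 0.24 (limma, P-value = 0.306). *Pgf*, the placental growth factor, reached 1.52 times and was well above background on 2 Norm and 1 Hypox arrays, with a difference of −0.069 and an interval from −0.22 to 0.081 (limma, P-value = 0.354). For *Angpt2* and *Pgf* most arrays therefore gave only a bound, and *Vegfc* was near the background as well. Single arrays carried these estimates, since *Angpt2* was at 0.021 without Hypox replicate 2, its highest array, *Pgf* at −0.019 without Norm replicate 3 and *Vegfc* at 0.0031 without Hypox replicate 6.

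*Fgf2* was under the detection of these arrays in gastrocnemius. The junction probe printed above, averaged over 10 spots, gave 1.24 times the background in Cy5 on average, and was well above it on 0 of 24 arrays in the mouse channel and on 0 in the channel of the pool. The other *Fgf2* probe reached 1.18 times and was well above background on 1 Norm and 0 Hypox arrays. The second *Fgf1* probe reached 1.33 times and was well above background on 0 arrays of either group, so that of 2 probes for 1 transcript accession only 1 gave a level. No fold is given for these 3 probes, and their low signal does not show that the transcripts are absent.

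**Figure D4:**
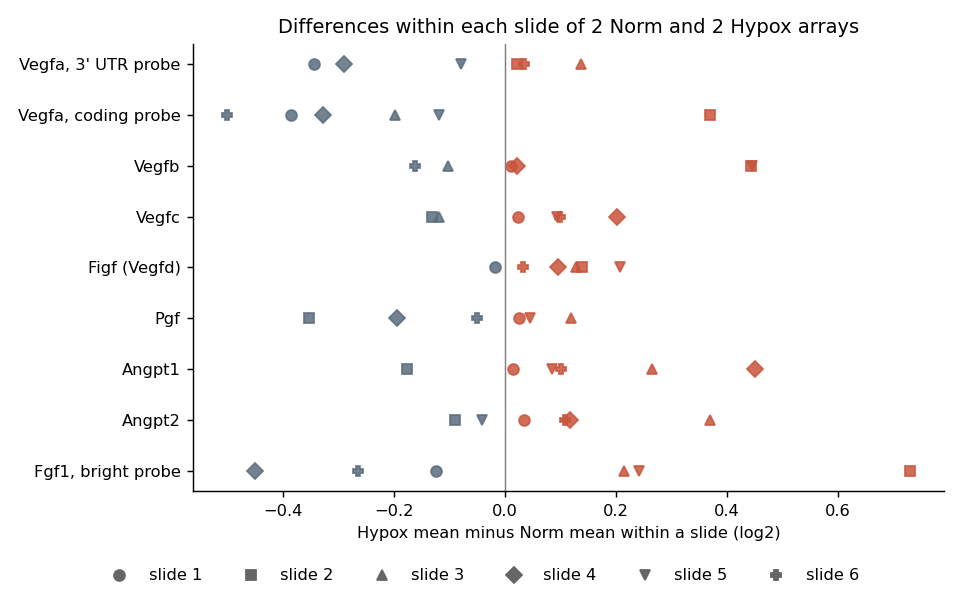
Difference of the Hypox mean and the Norm mean within each slide on the log2 scale (x axis), for the 9 ligand probes with a measured difference (y axis), 1 symbol per slide, with 2 Norm and 2 Hypox arrays behind each (1 Hypox array for *Angpt1* on 1 slide). No probe has all 6 slides on the same side of 0. On slide 2 the *Vegfa* coding probe is at 0.37, *Vegfb* at 0.44 and *Fgf1* at 0.73. Other slides reach as far, with *Vegfb* at 0.45 on slide 5, *Angpt1* at 0.45 on slide 4 and *Angpt2* at 0.37 on slide 3.

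The genes around the ligands were read by list, and their calls were not tested against those of the ligands. Over 5 lists of receptors, other secreted factors, inhibitors, regulators of *Vegfa* and genes of tip cells and Notch, 41 of 64 genes on the array passed the filter, with the brightest probe standing for a gene. At an unadjusted P-value under 0.05, 13 of the 41 (31.7%) were called, 6 higher and 7 lower in Hypox, and 3 passed the adjusted threshold. Over all genes, 12.1% were called, 7.07% higher and 4.99% lower, and 0.602% passed after adjustment. The lists were written with results of these data known, so this share describes the lists and is no test of them. With median centring, the lower estimates of *Nrp2*, *Kdr*, *Pdgfa*, *Timp2*, *Sp1*, *Ppargc1a* and *Plxnd1* given below turned positive, all of them under the shifted median of all probes.

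Among 7 receptors and co-receptors tested, *Kdr* and *Flt1*, the receptors of *Vegfa*, were at −0.15 (limma, P-value = 0.237) and −0.045 (limma, P-value = 0.659). *Kdr* had a second probe at 0.10, and its sign also turned in the deposited values. The co-receptor *Nrp1* was the 1 receptor called, higher by 0.19 ± 0.089 (limma, P-value = 0.0471, adjusted P-value = 0.347). It was called in 11 of the 24 fits that each left out 1 array. *Nrp1* lost its call with median centring (limma, P-value = 0.141) and in the deposited values (limma, P-value = 0.438). *Nrp2* was at −0.11 (P-value = 0.132), and *Flt4* and *Tek*, the receptors of *Vegfc* and *Figf* and of the angiopoietins, did not pass the filter.

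The secreted factor that rose was *Angptl4*, an angiopoietin-like inhibitor of lipoprotein lipase and a target of fasting and of the hypoxia-inducible factors. Its log2 ratio was −0.56, −0.18 and 0.64 in the lowest, median and highest Norm array and −0.39, 0.58 and 1.59 in Hypox. The ranges overlapped, but Hypox was higher on 6 of 6 slides, with a difference of 0.66 ± 0.16 (SE; limma, P-value = 0.000339, adjusted P-value = 0.0402). Its adjusted call held in 16 of 45 alternative fits and its unadjusted one in all 45, and without the 4 arrays with *Sftpc* it was at 0.59 (limma, P-value = 0.00585, adjusted P-value = 0.222). With each slide left out in turn, the adjusted P-value of *Angptl4* (limma) ran from 0.0296 without slide 1 to 0.205 without slide 4. Of the 8 factors tested, *Ccn1*, a matrix protein that acts on integrins, was higher by 0.40 (P-value = 0.00220, adjusted P-value = 0.102). *Pdgfa* was at −0.25 (P-value = 0.0123, adjusted P-value = 0.210) and at −0.022 (P-value = 0.937) in the deposited values. *Cxcl12* was called as higher by its brighter probe at 0.35 (P-value = 0.0405), while its second probe was at 0.10 (P-value = 0.251).

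Of the 8 secreted or matrix inhibitors tested, 4 were called as lower and 1 as higher. *Vash1*, encoding vasohibin, an inhibitor of angiogenesis that endothelial cells make, was at 0.20, 0.88 and 1.57 in the lowest, median and highest Norm array and at −0.37, 0.10 and 0.88 in Hypox. The highest Hypox array lay at about the Norm median, and Hypox was higher on 0 of 6 slides. *Vash1* fell by 0.75 on the log2 scale, with an SE of 0.14 (limma, P-value = 1.46e-05, adjusted P-value = 0.0155), and its second probe was at −0.55 (adjusted P-value = 0.0879). *Vash1* lost its call with median centring (−0.20, P-value = 0.699) and in the deposited values (−0.39, P-value = 0.217), and without the 4 arrays with *Sftpc* it was at −0.70 (limma, P-value = 0.000404, adjusted P-value = 0.113). With each slide left out in turn, its adjusted P-value (limma) ran from 0.00789 without slide 2 to 0.177 without slide 5. *Adamts1*, a protease that binds the VEGF protein, was at −0.40 (P-value = 0.00570), but at −0.090 (P-value = 0.796) with median centring and at −0.34 (P-value = 0.115) in the deposited values. *Timp2*, an inhibitor of matrix proteases, was also at −0.40 (P-value = 0.00866), but its second probe was at 0.13 (P-value = 0.216), and it was at −0.11 (P-value = 0.759) in the deposited values. *Timp3* was the other lower gene and *Sema3f* the higher one.

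Regulators of *Vegfa* mostly stayed under the threshold. Of 12 tested, *Sp1*, a general transcription factor of GC-rich promoters, was the 1 called, at −0.15 (limma, P-value = 0.0442, adjusted P-value = 0.340), and it was called in 12 of the 24 fits that each left out 1 array. *Ppargc1a* was at −0.21 (P-value = 0.0549, and 0.0452 with the slide as a block) and *Hif1a* at 0.29 (P-value = 0.248). A single Hypox array at 3.04 carried the value of *Hif1a*, whose group medians were 0.086 in Norm and 0.10 in Hypox and whose difference was 0.037 without Hypox replicate 12. The prolyl hydroxylase *Egln3*, itself induced by low oxygen in many cells, was at −0.013 (P-value = 0.898). In the list of tip cells and Notch, 2 of 6 genes were called. *Hey1*, a repressor induced by Notch, was higher by 0.37 ± 0.088 (limma, adjusted P-value = 0.0355, which held in 19 of 45 alternative fits). Without the 4 arrays with *Sftpc*, *Hey1* was at 0.32 (limma, P-value = 0.00457, adjusted P-value = 0.205). With each slide left out in turn, its adjusted P-value (limma) ran from 0.0237 without slide 1 to 0.193 without slide 5. *Plxnd1*, a semaphorin receptor, was at −0.29 (P-value = 0.00190, adjusted P-value = 0.0951) with its second probe at 0.060, and at −0.11 (P-value = 0.603) in the deposited values. *Notch4* was at 0.16 (P-value = 0.143).

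**Figure D5:**
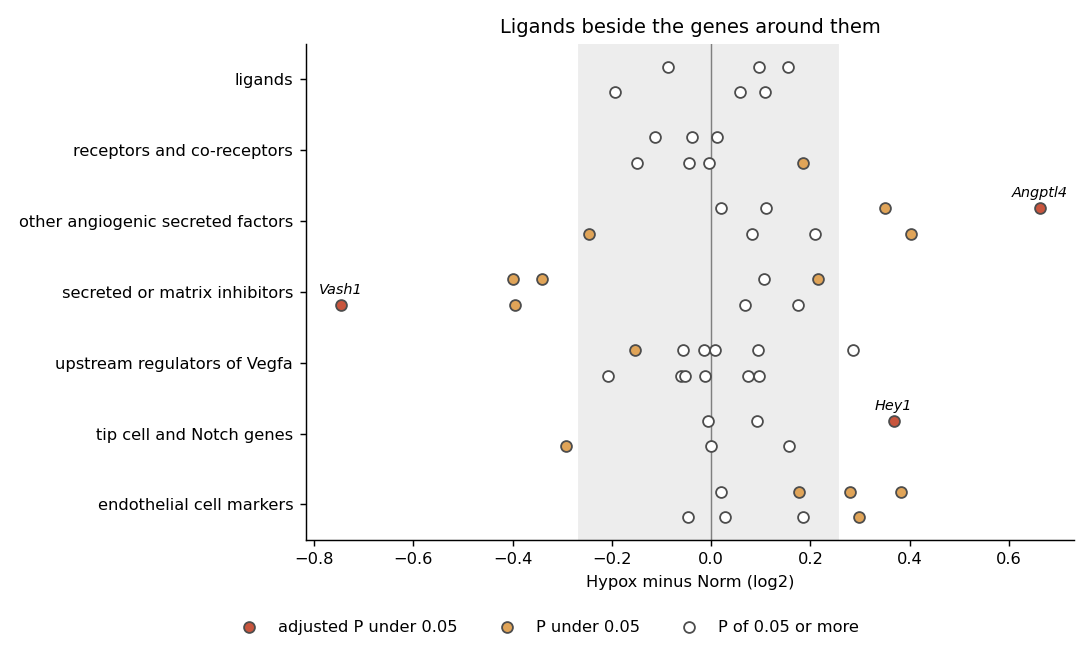
Difference between Hypox and Norm on the log2 scale (x axis) for each ligand probe past the filter and each gene past the filter of the 5 surrounding lists and the endothelial markers (y axis, 1 row per list). Colours give the limma P-value before and after adjustment, and the grey band is the range from the 5th to the 95th percentile of all probes past the filter. The ligands hold 0 called probes, and *Angptl4*, *Vash1* and *Hey1* are the genes past the adjusted threshold.

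Endothelial cells, the targets of the ligands, gave 4 of 8 tested markers called at an unadjusted P-value under 0.05, all higher, and 0 after adjustment, against 7.07% of all genes called as higher. *Esam* was higher by 0.28 (P-value = 0.00145), *Cldn5* by 0.30 (P-value = 0.00454), *Cdh5* by 0.38 (P-value = 0.00552) and *Ramp2* by 0.18 (P-value = 0.0471, and 0.0505 with the slide as a block), which was called in 8 of the 24 fits that each left out 1 array, while *Pecam1* and *Emcn* did not pass the filter. The other markers tested were not called, with *Vwf* at 0.19, *Sox18* at 0.028, *Eng* at 0.020 and *Rasip1* at −0.046. This list was also written with results of these data known, so its share is no test of endothelial cells. Genes tied to endothelial cells above but listed elsewhere differed. By their brightest probes *Kdr* was at −0.15, *Flt1* at −0.045 and *Vash1* at −0.75. Other probes of *Kdr* and *Flt1* were positive, and *Angpt2*, under the filter, was at 0.082. The mean log2 ratio of the 8 markers ranged from −0.47 to −0.13 over the Norm arrays and from −0.25 to −0.021 over the Hypox arrays. With median centring the 4 called markers lost their call, with P-values from 0.0986 to 0.276 (limma). Their estimates were larger, but that scaling moved the median of all probes past the filter from 0.023 to 0.24. Lung tissue also holds endothelial cells, and without the 4 arrays with *Sftpc* the differences were 0.24 for *Esam* (P-value = 0.0172), 0.34 for *Cldn5*, 0.33 for *Cdh5* and 0.092 for *Ramp2* (P-value = 0.303).

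Among the ligands, *Figf* and *Vegfb* had the highest correlations with these markers from mouse to mouse, at 0.56 and 0.54 with the mean of the list over the 24 arrays. With slide means removed, *Figf* correlated with the mean of the endothelial markers at 0.63 over the 24 arrays. The 5th and 95th percentiles of all genes were −0.51 and 0.53. With single markers *Figf* correlated unevenly, at 0.82 with *Esam*, 0.57 with *Cldn5* and 0.13 with *Cdh5*. Against the mean of the markers, *Vegfb* stood at 0.43, *Fgf1* at 0.20, *Angpt1* at −0.091, and the 3′ UTR and coding probes of *Vegfa* at −0.18 and −0.39. *Figf* also correlated with the mean of the 2 lung markers tested, *Sftpc* and *Lamp3*, at 0.58, where the 95th percentile of all genes was 0.41. With *Sftpc* alone it stood at 0.50. *Lamp3* was well above background on all 24 arrays and *Sftpc* on 4. Hypox replicate 8 had the highest value of both *Figf* and *Sftpc* among the 24 arrays. These arrays share slides and a reference pool, and the part of lung or endothelial RNA in the level of *Figf* was not tested.

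After slide means were removed, the 3′ UTR probe of *Vegfa* correlated with the mean of the 10 muscle fiber markers at 0.58. The coding probe stood at 0.47, and the 5th and 95th percentiles of all genes were −0.51 and 0.45. Without that step the 3′ UTR probe was at −0.036 and the coding probe at 0.31. The cause of this change was not tested. Over the 24 arrays, the 3′ UTR probe was compared with all 9138 other genes past the filter, without the removal of slide means. Most like it were *Usp13* (Pearson r = 0.85), *Smtnl1* (0.77), *Zfp652* (0.76), *Actr1a* (0.75) and *Zfp106* (0.75). None of these 5 passed the test between the groups, with P-values from 0.36 to 0.82. With slide means removed, *Usp13* stood at 0.85 and the other genes at 0.69 to 0.77. Among the ligands themselves, the 3′ UTR probe of *Vegfa* ran opposite to *Figf* (r = −0.56), and *Vegfb* ran with *Fgf1* (0.54) and *Figf* (0.42).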

How the data were processed

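Total RNA of the gastrocnemius of 24 mice, 1 mouse per array and 12 per group, was hybridised in Cy5 against a Cy3 pool of all samples on 2-colour Agilent arrays. The deposited intensities were extracted with Agilent Feature Extraction 10.7.3.1, per the submitters' processing notes, and are the mean signal and median local background of each spot. The authors also deposited normalized log2 values, whose columns all had a median of 6.58 and followed log2 Cy5 intensity (r from 0.967 to 0.999). The authors selected genes by Student's t-test without adjustment.

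Here, intensities were background corrected with normexp (offset 50) and loess-normalized within arrays in limma 3.58.1 (R 4.3.3). Control spots and 7260 flagged readings were left out, no reading was saturated, and spots of a probe were averaged. Probes with a mean Cy5 signal over 2 times the background and at most 4 arrays without a value were tested (14312 of 55681) with the two-sided moderated test of limma, with no block, with Benjamini-Hochberg adjustment over all of them and a threshold of 0.05. Scripts were tested on simulated data. Genes were named by accession (27235 probes), symbol (3581) or synonym (565), and 24300 probes had no gene. The number of arrays limits the precision.

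Named were every ligand probe, up to 3 genes per list with the lowest P-values and the 5 genes most correlated with the brighter *Vegfa* probe. *Flt1*, *Egln3*, *Cxcl12*, *Timp3*, *Sema3f*, *Ramp2*, *Vwf*, *Sox18*, *Eng*, *Rasip1*, *Myh1*, *Myh4*, *Dcn* and the lung markers were named in addition, after their values were seen. The brightest probe stood for a gene outside the ligands. The ligands and lists were chosen with earlier results of these data known. Alternatives were other signals, corrections, scalings, filters, tests, blocks and array weights, and leaving out each array. Leaving out slide 1, the dimmest, was planned, and leaving out each other slide or the arrays with *Sftpc* was chosen after seeing the data. The sequence of 1 probe is not reported here.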

Additional observations from a re-analysis of the deposited data

How the results depend on the processing

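The main fit called 2011 probes at an unadjusted P-value under 0.05, 143 after adjustment, and 0 ligand probes. Over 396 fits of a ligand probe under an alternative, 11 passed the unadjusted threshold, 0 the adjusted one (lowest adjusted P-value 0.109), and 9 turned the sign. The cause of these changes was not tested. Adjusted calls numbered 251 with Agilent's processed signals, 75 in the Cy5 channel alone, 89 with the methods' t-test, 45 without a filter, 31 with 1 probe per gene, 670 with array weights, 78 without slide 3, 1 without slide 4, 1 without slide 5, 81 without slide 6, 1 without the 4 arrays with *Sftpc*, 1 in the deposited values and 0 with median centring. Unadjusted calls numbered 59 with median centring, 911 in the deposited values, 4487 without a filter and 1118 with 1 probe per gene. Of the unadjusted calls, 53.3% were higher in Hypox, against 96.6% with median centring.

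Ligand probes past the filter called at the unadjusted threshold numbered 1 with the processed signals, 1 in Cy5 alone, 1 with the t-test, 1 without a filter, 2 with array weights and 1 without slide 2. The *Vegfa* coding probe passed it with the processed signals (−0.46), in Cy5 alone (−0.31), with array weights (−0.27) and without slide 2 (−0.31), and *Figf* with the t-test, without a filter and with array weights. Within slides, the 3′ UTR probe ranged from −0.34 (slide 1) to 0.14 (slide 3) and the coding probe from −0.50 (slide 6) to 0.37 (slide 2). Signs turned with median centring for the 3′ UTR (0.21) and coding (0.074) probes of *Vegfa*, *Nrp2* (0.11), *Kdr* (0.20), *Pdgfa* (0.12), *Timp2* (0.071), *Sp1* (0.035), *Ppargc1a* (0.061) and *Plxnd1* (0.025). Unadjusted calls of *Vash1*, *Adamts1*, *Pdgfa*, *Timp2*, *Plxnd1*, *Nrp1*, *Sp1* and *Ramp2* were lost both with median centring and in the deposited values. Those of *Esam*, *Cldn5* and *Cdh5* were lost with median centring and kept in the deposited values. Signs turned in the deposited values for the 3′ UTR probe (0.018), *Angpt2* (−0.15) and *Kdr* (0.033), and for *Fgf1* in Cy5 alone (−0.044), with array weights (−0.0077), without Norm replicate 5 (−0.012) and without slide 2 (−0.077). *Vegfc* turned without slide 4 (−0.0072).

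Leaving out 1 array at a time gave 1720 to 2272 unadjusted and 51 to 238 adjusted calls, and 0 to 1 ligand probes. The adjusted count moved by over 1.5 times without Norm replicate 1 (83), 2 (87), 5 (81), 7 (58) or 12 (238) and without Hypox replicate 3 (78), 7 (51), 10 (84) or 11 (67). The 3′ UTR probe of *Vegfa* ranged from −0.12 to −0.052 and the coding probe from −0.25 to −0.15, and *Fgf1* from −0.012 to 0.16.

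Replicate numbers do not pair the mice. Of 12 same-numbered pairs, 3 had deviations correlated above 0.1 (range −0.22 to 0.54), and 1 lay on the same slide. With the replicate number as a block, 2083 probes were called unadjusted, 125 after adjustment and 0 of the ligands, and *Vegfa* stayed at −0.087 and −0.19, while *Nrp1*, *Sp1* and *Ramp2* lost their unadjusted call. With the slide as a block the counts were 2284, 214 and 0, *Ppargc1a* gained an unadjusted call and *Ramp2* lost it. Low signal limited *Vegfc*, *Pgf*, *Angpt2* and *Fgf2*, whose transcripts were near or under the background.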
